A study of Schizosaccharomyces pombe with 31 samples.

Results

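The 59 RNAs described here are annotated non-coding transcripts of the fission yeast *Schizosaccharomyces pombe* whose level in wild type cells starved of nitrogen for 4 h was at most 0.5 times that in growing cells. They were taken from 1529 transcripts with an SPNCRNA identifier among the 7001 genes of the table, of which 948 had a mean normalized count of at least 10 over all 27 time-course libraries and 581 did not. The value compared was the mean of the 3 replicates plus 10. At or below a ratio of 0.5 lay 98 transcripts, and 39 of them were left out because they were at least 2 times the wild type level in both mutants at 4 h. The 0 h and 4 h wild type libraries and the 4 h mutant libraries therefore chose the 59 RNAs, and the values of the 59 RNAs in those libraries are given as a description, without a test.

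The study followed strains of the Greatwall–Endosulfine pathway through nitrogen starvation, and asked in a second experiment what raised levels of Greatwall do while nitrogen is present. Total RNA depleted of ribosomal RNA was sequenced from *h-* cells labelled *igo1::kanMX6* (Endosulfine, here called *igo1*∆-labelled), *ppk18::KanMX6 cek1::natMX6* (Greatwall, *ppk18*∆ *cek1*∆) and 972 (wild type), each at 0 h in minimal medium (MM) and after 1 h and 4 h in minimal medium without nitrogen (MM-N), with 3 libraries labelled as biological replicates per group. In the second experiment *h-* cells carrying GFP-tagged *ppk18* under the strong, thiamine-repressed *nmt1* promoter and 972 wild type cells were grown for 20 h without thiamine in the presence of nitrogen, with 2 libraries each. The overexpressed copy carries the GFP tag, and the counts do not tell tagged from native *ppk18* transcript. GEO's labels call the deletions knockdowns.

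Long non-coding RNAs of fission yeast are made by RNA polymerase II from intergenic DNA, from the far strand of coding genes, or from the same promoter region as a coding gene that is transcribed away from them. Many are kept low by the nuclear exosome, the RNA-degrading complex of the nucleus, and by factors that lead transcripts to it, while RNA interference and heterochromatin act at particular loci. TORC1, the nutrient-sensing kinase complex, restrains the kinase Greatwall in nitrogen-rich medium. Without nitrogen, Greatwall phosphorylates Endosulfine, which then inhibits the phosphatase PP2A/B55.

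Depth on annotated genes was 14921656 to 22464897 reads per library in the time course and 14612909 to 18846318 in the overexpression experiment. The deposited values are reads divided by a size factor, called normalized counts here. Deletion of the kinase genes was visible, with *ppk18* at 3.39 to 4.69% and *cek1* at 1.12 to 2.51% of wild type in *ppk18*∆ *cek1*∆ at the 3 times. The transcript of *igo1* was not lost in the *igo1*∆-labelled libraries, where it stood at 64.9%, 74.0% and 56.4% of wild type at 0, 1 and 4 h, so these libraries are named by their label throughout. In the overexpression strain *ppk18* averaged 359073 ± 21109 normalized counts and in its wild type 4968 ± 1.70 (SD, n = 2 each).

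In wild type cells the ratio of the 4 h to the 0 h value ran from 0.11 to 0.49 over the 59 RNAs, with a median of 0.36. This is the value that chose them. The same ratio was at most 0.5 in 13.8% of the 6036 genes with a mean of at least 10. Levels were low: mean normalized counts over the 27 libraries ranged from 11.9 (SPNCRNA.1419) to 482 (SPNCRNA.1644) with a median of 40.4, and 35 of the 59 RNAs lay under 50. In these bulk samples fewer cells making an RNA and less of it per cell cannot be told apart. The members nearest the threshold were SPNCRNA.735 (0.485), SPNCRNA.945 (0.485) and SPNCRNA.1452 (0.486), and the transcripts just outside it were SPNCRNA.1079 (0.506), SPNCRNA.1635 (0.507) and SPNCRNA.721 (0.512).

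**Figure D1:**
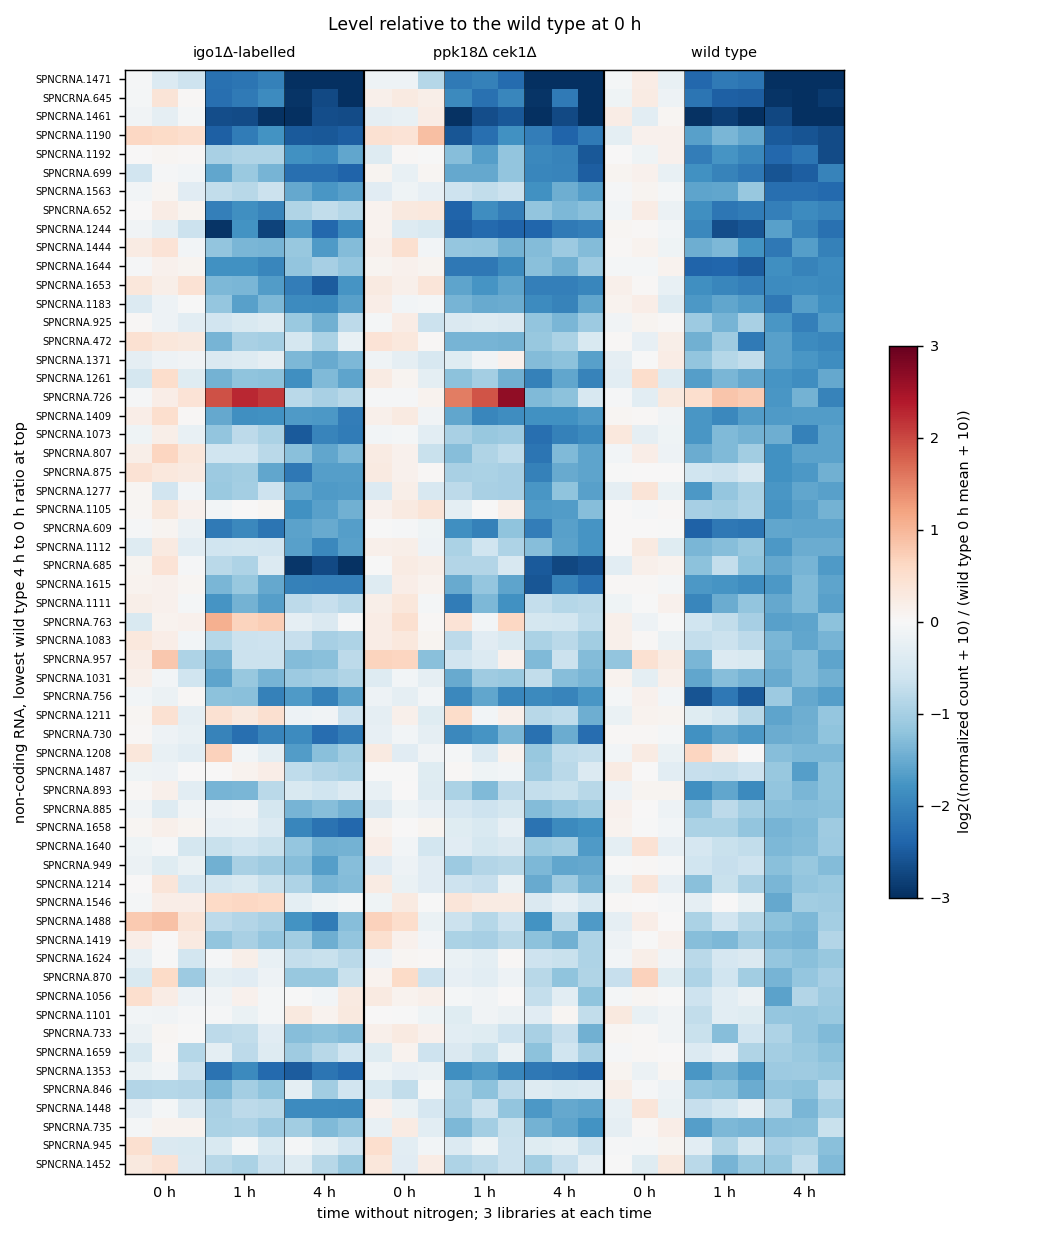
Level of each of the 59 non-coding RNAs (rows, ordered by the wild type 4 h to 0 h ratio) in the 27 time-course libraries (columns, grouped by strain and by time without nitrogen), as the log2 ratio of normalized count plus 10 to the wild type mean at 0 h plus 10. Blue is lower and red higher than wild type at 0 h, the 4 h columns of wild type are blue by the choice of RNAs, and SPNCRNA.726 stands out in red at 1 h.

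Most of the difference was already present at 1 h. The wild type 1 h to 0 h ratio had a median of 0.43, against 1.14 over the 889 other SPNCRNA transcripts that passed the same minimum. Its 0 h libraries are those that the rule used, so the choice partly sets this ratio. It was at most 0.5 in 35 of the 59 RNAs (13.2% of all genes), between 0.5 and 1 in 22, and above 1 only in SPNCRNA.726 (1.63) and SPNCRNA.1208 (1.24). From 1 h to 4 h the courses parted, as 43 RNAs had a lower and 16 a higher group mean at 4 h than at 1 h. The rule chose low 4 h values, so it partly sets this split, and the same split over all genes was not counted.

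SPNCRNA.1471 and SPNCRNA.645 had the lowest ratios among RNAs with at least 100 normalized counts at 0 h. SPNCRNA.1471 had 837, 1025 and 749.9 normalized counts in wild type at 0 h, 162, 192 and 182 at 1 h and 91.7, 91.1 and 83.0 at 4 h. SPNCRNA.645 had 94.6, 126 and 92.7 at 0 h, 15.1, 11.0 and 10.5 at 1 h and 4.88, 3.26 and 5.64 at 4 h. Both declined in steps, with every library of a later time below every library of the earlier one. SPNCRNA.1644, the most abundant, took another course, with 849, 842 and 956 at 0 h, 158, 162 and 148 at 1 h and 239.9, 213 and 233 at 4 h, so that the 1 h libraries were the lowest. SPNCRNA.609 was likewise lowest at 1 h, with 462, 462 and 455 at 0 h, 77.3, 95.4 and 93.6 at 1 h and 150.2, 146 and 147 at 4 h. SPNCRNA.652 had 151, 188 and 141 at 0 h, 37.3, 28.1 and 29.9 at 1 h and 31.2, 35.8 and 33.04 at 4 h, and its 1 h and 4 h libraries overlapped. The remaining RNAs with the lowest ratios and 100 or more normalized counts at 0 h were SPNCRNA.1563 (0.21), SPNCRNA.1444 (0.26), SPNCRNA.1653 (0.27), SPNCRNA.925 (0.28), SPNCRNA.1371 (0.30), SPNCRNA.1105 (0.33) and SPNCRNA.685 (0.35).

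**Figure D2:**
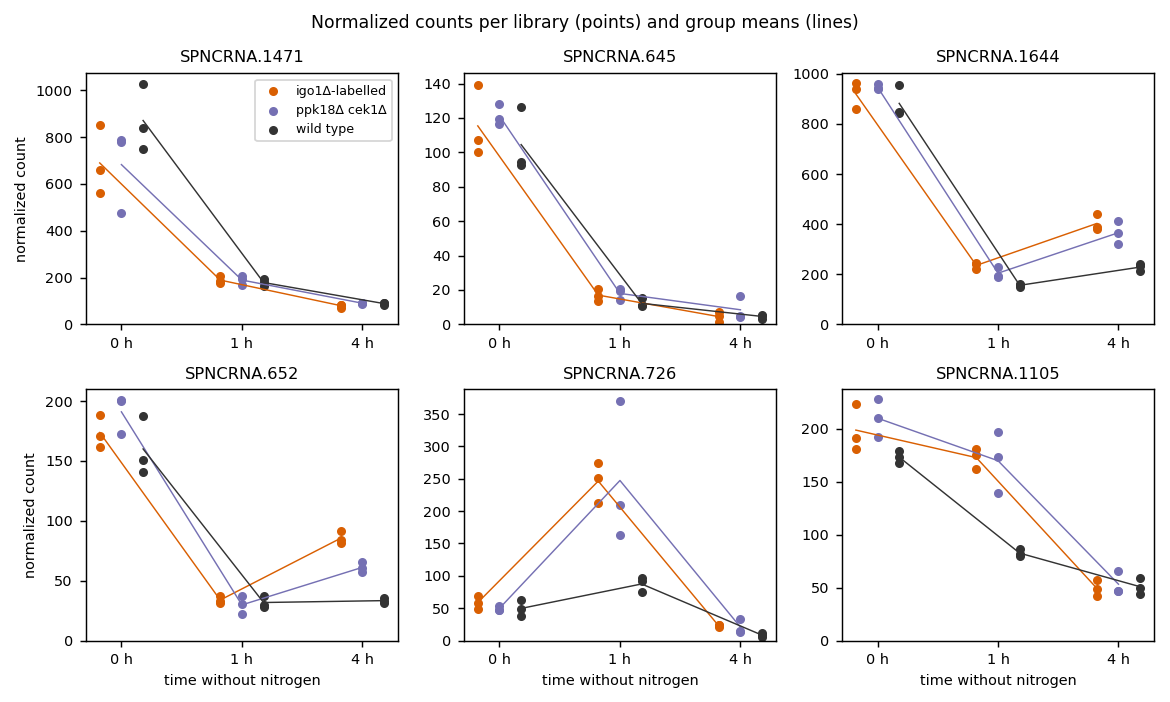
Normalized counts (vertical axis, from 0) of 6 of the RNAs at 0, 1 and 4 h without nitrogen. Points are single libraries, 3 per strain and time, lines join the group means and the 3 times are evenly spaced; *igo1*∆-labelled is orange, *ppk18*∆ *cek1*∆ purple and wild type black. SPNCRNA.1471 and SPNCRNA.645 lie low from 1 h on in all strains, SPNCRNA.1644 and SPNCRNA.652 stand higher in the mutants than in wild type at 4 h, SPNCRNA.726 peaks at 1 h and SPNCRNA.1105 at 1 h lies higher in both mutants than in wild type.

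Both mutants also held these RNAs low at 4 h, in libraries that the rule used. As it took out 39 transcripts at least 2 times wild type in both mutants at 4 h, the choice partly sets the values that follow. Each mutant's own ratio of 4 h to 0 h had a median of 0.41 in the *igo1*∆-labelled strain and 0.38 in *ppk18*∆ *cek1*∆. It was at most 0.5 in 41 and 42 of the 59 RNAs, against 14.2% and 13.8% of all genes with a mean of at least 10. In both mutants together 38 RNAs lay at or below 0.5, and 14 lay above it in each, among them SPNCRNA.1056, SPNCRNA.1101, SPNCRNA.1487 and SPNCRNA.1546. Set against wild type at the same hour, the median ratio was 1.07 in the *igo1*∆-labelled strain and 1.15 in *ppk18*∆ *cek1*∆. At 4 h 7 RNAs were at least 2 times the wild type level in the *igo1*∆-labelled strain and 0 in *ppk18*∆ *cek1*∆, which the rule limits, since it took out RNAs that were that high in both. Of the 6036 genes with a mean of at least 10, 643 (*igo1*∆-labelled) and 577 (*ppk18*∆ *cek1*∆) were that high. Of the 889 other SPNCRNA transcripts, 230 and 210 were. SPNCRNA.652 was one of the 7, with 81.1, 91.5 and 83.8 in the *igo1*∆-labelled libraries, 65.4, 57.2 and 60.8 in *ppk18*∆ *cek1*∆ and 31.2, 35.8 and 33.04 in wild type, and the 3 strains did not overlap. SPNCRNA.685 was below 0.5 times wild type in both mutants, with 5.01, 7.39 and 4.47 in the *igo1*∆-labelled libraries and 9.91, 7.15 and 8.25 in *ppk18*∆ *cek1*∆, against 29.3, 33.4 and 25.0 in wild type. SPNCRNA.1353 was the other RNA of this kind. At 0 h the mutants stood close to wild type, with median ratios of 0.97 (*igo1*∆-labelled) and 0.99 (*ppk18*∆ *cek1*∆).

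Whether the RNAs also fell in libraries outside the rule's ratios was tested within each mutant, between 1 h and 0 h. These libraries entered the rule only through the minimum mean. The rule did use both mutants at 4 h, and took out 39 transcripts that were at least 2 times wild type in both. Of those, 17 rose and 14 fell in the *igo1*∆-labelled strain, and 14 rose and 15 fell in *ppk18*∆ *cek1*∆, between 0 h and 1 h. The falls of the 59 RNAs are therefore not independent of the choice. In the *igo1*∆-labelled strain 39 of the 59 RNAs fell and 3 rose, where 38.1% of the 6036 genes tested fell and 39.7% rose. In *ppk18*∆ *cek1*∆ 42 fell and 1 rose, against 38.2% and 39.2% of all genes (limma, Benjamini-Hochberg adjusted p under 0.05 over all genes). The median log2 fold change of the 59 RNAs was −1.19 and −1.14, against 0.61 and 0.57 for the 889 other SPNCRNA transcripts, of which 494 and 492 rose and 101 and 104 fell. In both mutants 38 RNAs fell, 97.4% of those that fell in the *igo1*∆-labelled strain and 90.5% of those that fell in *ppk18*∆ *cek1*∆. Over all genes the shares were 93.6% and 93.3%, so this overlap was near that of genes at large. At 0 h the group mean of each of the 59 RNAs was at least 10, and at 1 h it was under 10 for 7 of them in the *igo1*∆-labelled strain and 6 in *ppk18*∆ *cek1*∆, which met the minimum through other groups. Of the 24 RNAs with a mean of at least 50, 13 fell and 2 rose in the *igo1*∆-labelled strain and 16 fell and 1 rose in *ppk18*∆ *cek1*∆, with median log2 fold changes of −0.53 and −0.57.

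SPNCRNA.1644 had 242, 244 and 220.2 normalized counts at 1 h and 859, 962 and 939 at 0 h in the *igo1*∆-labelled strain, a log2 fold change of −1.96 ± 0.09 SE, limma adjusted p = 9.96e-16. In *ppk18*∆ *cek1*∆ it had 193, 191 and 229 at 1 h and 942, 958 and 941 at 0 h, a log2 fold change of −2.21 ± 0.09 SE, limma adjusted p = 1.06e-16. The times did not overlap in either strain. SPNCRNA.652 fell by a larger factor. It had 31.3, 37.1 and 33.1 at 1 h against 162, 188 and 171 at 0 h in the *igo1*∆-labelled strain (−2.33 ± 0.15 SE, limma adjusted p = 1.38e-12), and 22.1, 36.9 and 30.4 against 173, 199.8 and 201 in *ppk18*∆ *cek1*∆ (−2.67 ± 0.15 SE, limma adjusted p = 1.10e-13). SPNCRNA.609 fell by 2.12 on the log2 scale in the *igo1*∆-labelled strain, and SPNCRNA.1111 fell by 2.20 in *ppk18*∆ *cek1*∆. The lowest log2 fold changes in both mutants belonged to SPNCRNA.1461, named after its values were seen, at −4.08 and −4.02, where the 1 h libraries held 4.59, 4.32 and 1.89 (*igo1*∆-labelled) and 1.77, 4.73 and 5.91 (*ppk18*∆ *cek1*∆) normalized counts. This RNA met the minimum mean through its 0 h libraries, and is given as values only.

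SPNCRNA.726 rose in both mutants. It had 213, 275 and 251 at 1 h and 48.6, 58.5 and 68.9 at 0 h in the *igo1*∆-labelled strain (2.06 ± 0.30 SE, limma adjusted p = 1.74e-06), and 163, 209 and 369.8 at 1 h and 47.9, 47.9 and 53.7 at 0 h in *ppk18*∆ *cek1*∆ (2.20 ± 0.30 SE, limma adjusted p = 6.63e-07). At 4 h it was low in every strain, at 24.04, 20.3 and 23.46 in the *igo1*∆-labelled libraries, 13.9, 15.3 and 32.99 in *ppk18*∆ *cek1*∆ and 7.80, 12.2 and 4.83 in wild type. Its level peaked at 1 h, and none of the other 58 RNAs was called higher in both mutants. The reference annotation places SPNCRNA.726 beside *caa1*, an aspartate aminotransferase gene, which is separated from *igo1* by 2 coding genes. SPNCRNA.1546 rose in the *igo1*∆-labelled strain only by the test, with 163, 167 and 163 at 1 h and 100.05, 121 and 121 at 0 h (0.53 ± 0.14 SE, limma adjusted p = 0.00172), a call that quantile normalization ended (adjusted p = 0.430), and the difference between the mutants was not called. SPNCRNA.763, named after its values were seen, was the third RNA that rose there (log2 fold change 1.05). Under scaling of the libraries to equal sums, the median of all genes moved to 0.42 (*igo1*∆-labelled) and 0.37 (*ppk18*∆ *cek1*∆), the median of the 59 RNAs was −0.81 and −0.80, and 7 rose and 31 fell in the *igo1*∆-labelled strain and 5 rose and 33 fell in *ppk18*∆ *cek1*∆.

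**Figure D3:**
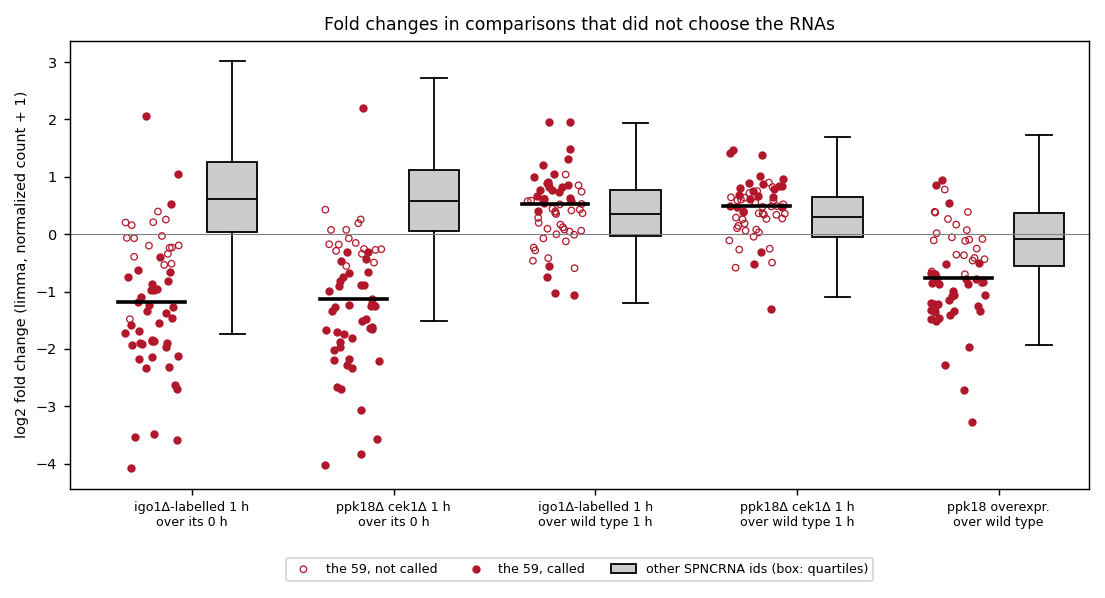
Log2 fold changes (limma, on log2 of normalized count plus 1) in the 5 comparisons whose libraries did not choose the RNAs. Red points are the 59 RNAs (58 in the overexpression experiment), filled where called, with black bars at their medians, and grey boxes show the quartiles of the other SPNCRNA transcripts with whiskers reaching at most 1.5 box heights. The medians of the 59 RNAs lie at −1.19, −1.14, 0.52, 0.48 and −0.77, and those of the other SPNCRNA transcripts at 0.61, 0.57, 0.34, 0.29 and −0.08.

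Set against wild type at 1 h, the mutants held somewhat more of these RNAs, to a degree shared with other non-coding transcripts. In the *igo1*∆-labelled strain 22 of the 59 were higher and 4 lower, where 32.6% of all genes were higher and 29.9% lower, and 41.1% of the other SPNCRNA transcripts were higher. In *ppk18*∆ *cek1*∆ 20 were higher and 3 lower, where 30.5% of all genes were higher and 28.7% lower, and 37.5% of the other SPNCRNA transcripts were higher. These comparisons share the 3 wild type libraries. Quantile normalization gave 15 higher and 6 lower for the *igo1*∆-labelled strain and 13 higher and 5 lower for *ppk18*∆ *cek1*∆. Of the 39 transcripts left out by the rule, 31 were higher and 1 lower in the *igo1*∆-labelled strain and 31 higher and 2 lower in *ppk18*∆ *cek1*∆ at this hour.

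SPNCRNA.1105 showed the difference clearly, with 162, 175 and 181 normalized counts in the *igo1*∆-labelled libraries, 139, 173 and 197 in *ppk18*∆ *cek1*∆ and 81.7, 79.3 and 86.4 in wild type. Its log2 fold changes were 1.06 ± 0.14 SE, limma adjusted p = 9.94e-07 and 1.02 ± 0.14 SE, limma adjusted p = 1.87e-06, and neither mutant overlapped wild type. SPNCRNA.726, at 74.6, 96.4 and 91.2 in wild type, was 1.49 and 1.41 higher on the log2 scale in the *igo1*∆-labelled strain and in *ppk18*∆ *cek1*∆. SPNCRNA.1487 had 131, 142 and 151 in the *igo1*∆-labelled libraries against 76.4, 75.3 and 81.5 in wild type (0.85 ± 0.17 SE, limma adjusted p = 1.78e-04), and SPNCRNA.1371 had 99.7, 123 and 145 in *ppk18*∆ *cek1*∆ against 52.4, 68.3 and 75.1 in wild type (0.90 ± 0.16 SE, limma adjusted p = 6.25e-05). Neither fell within its mutant between 0 h and 1 h by the test. SPNCRNA.949 was lower in the mutants, at 142, 199 and 186 in the *igo1*∆-labelled libraries, 184, 214 and 219.5 in *ppk18*∆ *cek1*∆ and 262, 246 and 258 in wild type. Its log2 fold change was −0.55 ± 0.11 SE, limma adjusted p = 2.18e-04 in the *igo1*∆-labelled strain and −0.31 ± 0.11 SE, limma adjusted p = 0.0216 in *ppk18*∆ *cek1*∆, and the call in *ppk18*∆ *cek1*∆ was lost without wild type replicate 1 (adjusted p = 0.0599), without wild type replicate 3 (0.0509) or without *ppk18*∆ *cek1*∆ replicate 1 (0.116). The other RNAs that were lower, named after their values were seen, were SPNCRNA.1190 in both mutants, SPNCRNA.875 and SPNCRNA.1353 in the *igo1*∆-labelled strain and SPNCRNA.1448 in *ppk18*∆ *cek1*∆.

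The mutants did not differ from each other by the test. Between *igo1*∆-labelled and *ppk18*∆ *cek1*∆ cells at 1 h limma called 0 of the 59 RNAs, where 0.265% of all genes were called; 8 reached an unadjusted p under 0.05, and edgeR and DESeq2 also called 0. The log2 difference ran from −1.10 to 0.57. The difference of their changes over the first hour was called for 0 RNAs as well, with 1 at an unadjusted p under 0.05 and a lowest adjusted p of 0.668 (limma).

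Many of the RNAs were also lower in cells that overexpressed *ppk18* in the presence of nitrogen. Of the 58 that passed the minimum there (SPNCRNA.1419 did not), 33 fell and 3 rose in the overexpression strain relative to wild type, where 27.8% of 5863 genes fell and 29.6% rose. An RNA could meet this minimum through the wild type libraries alone, which favours a fall. How many did was not counted, so the count of 33 and the overlaps below carry this limit. Among the 770 other SPNCRNA transcripts tested 165 fell and 118 rose. The median log2 fold change was −0.77 for the 58 RNAs and −0.08 for the others. DESeq2 called fewer of the 58 RNAs, 1 higher and 21 lower. Of the transcripts left out by the rule, which belong to the others, 36 were tested here. In the overexpression strain 22 of these fell (61.1%) and 2 rose (limma), with a median log2 fold change of −0.72. The fall was therefore not particular to the 58 RNAs, as the left-out transcripts, also low in wild type at 4 h, shared it. Of the 58 RNAs, 38 had fallen in the *igo1*∆-labelled strain at 1 h, and 23 of these fell on overexpression, 60.5% of the 38 and 69.7% of the 33. For *ppk18*∆ *cek1*∆ it was 26 of 41, 63.4% of those and 78.8% of the 33. As 56.9% of the 58 RNAs fell on overexpression, these shares were near that of the RNAs as a whole. Over all genes tested in both, 43.7% of those that fell in the *igo1*∆-labelled strain and 44.5% of those that fell in *ppk18*∆ *cek1*∆ fell on overexpression. In all 3 comparisons 23 fell, and in none of them 9: SPNCRNA.870, SPNCRNA.925, SPNCRNA.945, SPNCRNA.957, SPNCRNA.1056, SPNCRNA.1208, SPNCRNA.1546, SPNCRNA.1640 and SPNCRNA.1659. How many of all genes fell in all 3 or in none was not counted, so these numbers are a description.

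SPNCRNA.1653 had 119 and 127 normalized counts in the overexpression strain and 390.5 and 321 in its wild type, a log2 fold change of −1.52 ± 0.14 SE, limma adjusted p = 1.27e-05. SPNCRNA.1444 had 12.5 and 32.2 in the overexpression strain and 93.1 and 111 in wild type (−2.28 ± 0.38 SE, limma adjusted p = 6.53e-04), and SPNCRNA.1563 had 40.5 and 48.4 in the overexpression strain against 142 and 92.1 in wild type (−1.35 ± 0.24 SE, limma adjusted p = 9.83e-04). In each of them both overexpression libraries lay below both wild type libraries. SPNCRNA.1183, named after its values were seen, had the lowest log2 fold change (−3.27), with 4.15 and 3.58 in the overexpression strain and 47.0 and 44.9 in wild type. This RNA met the minimum there through its wild type libraries, and is given as values only. How many of the other RNAs that fell met it in that way was not counted. SPNCRNA.726, the RNA that peaked at 1 h of starvation, fell here, with 7.26 and 14.3 in the overexpression strain and 57.8 and 31.9 in wild type (−1.97 ± 0.42 SE, limma adjusted p = 0.00283). The abundant SPNCRNA.1644 fell by a smaller factor, with 475 and 497 in the overexpression strain against 731 and 667 in wild type (−0.52 ± 0.09 SE, limma adjusted p = 6.23e-04), and SPNCRNA.1083 had 127 and 112 in the overexpression strain against 287 and 293 in wild type (−1.28 ± 0.13 SE, limma adjusted p = 2.85e-05).

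Against this direction, SPNCRNA.1277 rose, with 67.5 and 76.1 in the overexpression strain and 34.3 and 39.0 in wild type (0.95 ± 0.22 SE, limma adjusted p = 0.00438), although it fell in both mutants at 1 h. SPNCRNA.1208 also rose, with 167 and 149 in the overexpression strain against 118 and 99.2 in wild type (0.54 ± 0.16 SE, limma adjusted p = 0.0145), a call lost with DESeq2 (adjusted p = 0.0612), without wild type replicate 2 (0.0781) and without overexpression replicate 1 (0.0916). SPNCRNA.1214, named after its values were seen, was the third to rise. Among abundant RNAs SPNCRNA.609 was not called, with 291 and 272 in the overexpression strain and 277 and 227 in wild type, and neither was SPNCRNA.1658, with 378 and 364 in the overexpression strain and 406 and 380.1 in wild type. Of the 22 RNAs higher in the *igo1*∆-labelled strain than in wild type at 1 h, 19 fell on overexpression, 86.4% of those and 57.6% of the 33, where 56.9% of the 58 RNAs did. Over all genes 1025 of 1913 that were higher there fell on overexpression, 53.6% of those and 63.1% of the 1625 that fell, and among the other SPNCRNA transcripts 105 of 329, 31.9% of those. The libraries of these comparisons are separate, and the difference between these shares was not tested.

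**Figure D4:**
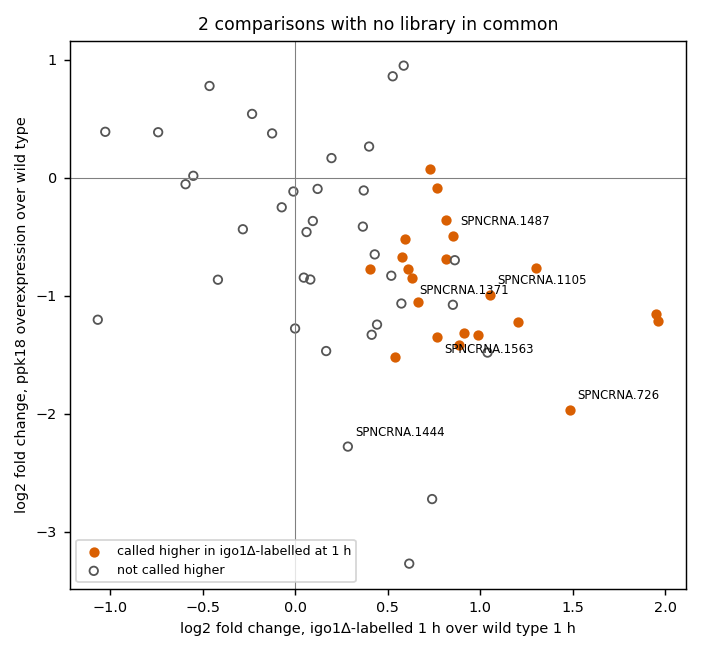
Log2 fold change of the 58 RNAs tested in both experiments in *ppk18* overexpression over its wild type (vertical) and in *igo1*∆-labelled over wild type cells at 1 h without nitrogen (horizontal), both from limma. Orange points are the 22 RNAs called higher in the *igo1*∆-labelled strain, of which 19 were called lower on overexpression (53.6% of all genes called higher there were), and open points are the rest.

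By the reference annotation, which is assembly ASM294v3 and was used for neighbours, names and lengths only, 58 of the 59 RNAs were found (SPNCRNA.893 was not). All 58 had 1 exon and a length of 322 to 4339 bases, with a median of 1537.5 bases against 1326 for the 877 other SPNCRNA transcripts matched. They lay on chromosomes I (24), II (20) and III (14). A coding gene on the opposite strand overlapped 47 of them (81.0%, against 70.7% of the others), 6 overlapped a coding gene on their own strand (10.3% against 14.6%), 18 started within 500 bases of a coding gene transcribed the other way (31.0% against 36.5%), and 4 did none of these. Whether the counting used strand is not given in the sources used here, while the library kit keeps it. Of 157 SPNCRNA transcripts that lie wholly inside a coding gene of the other strand, 5 had a mean of 0, and the median level per kilobase was 2.89% of that of the host gene.

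The coding genes overlapped on the opposite strand did not go down with the RNAs as a group. The wild type 4 h to 0 h ratio of the 58 such genes had a median of 1.06, as had the 730 opposite the other SPNCRNA transcripts. Opposite SPNCRNA.645 (0.13) lay SPAC13C5.04 (10.5) and *tht1*, a gene of nuclear fusion (1.11), opposite SPNCRNA.652 (0.25) *vsb1* (2.89) and opposite SPNCRNA.1653 (0.27) *cwf28* (1.17), the values being wild type ratios. The gene opposite SPNCRNA.1644, the meiosis kinase gene *spo4*, averaged 1.68 normalized counts, under the minimum, so its ratio carries no information. SPNCRNA.1471 (0.11) overlapped *pof9*, an F-box protein gene (1.77), and *ser2*, the phosphoserine phosphatase of serine synthesis (0.20). The other RNAs with the lowest ratios faced *pof10* (0.79, SPNCRNA.1563), SPAC8C9.04 (1.90, SPNCRNA.925), *rsn1* (1.17, SPNCRNA.1371), *rhp16*, of nucleotide excision repair (1.43, SPNCRNA.1105), SPAC11D3.14c (0.55, SPNCRNA.609) and SPAC16C9.01c (2.43, SPNCRNA.685), while SPNCRNA.1444 overlapped none.

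Coding genes that start beside the RNAs and run the other way were low more often than those beside other SPNCRNA transcripts, and so were coding genes that lie upstream on the same strand. In wild type their 4 h to 0 h ratio had a median of 0.40 over 18 genes, against 1.10 over the 318 divergent genes of other SPNCRNA transcripts and 0.99 over all coding genes, and 10 of the 18 were at most 0.5 (55.6% against 12.6%). In the *igo1*∆-labelled strain 13 of the 18 fell between 0 h and 1 h and 3 rose, where 42.9% of 4990 coding genes fell and 37.4% rose, and 33.02% of the divergent genes of other SPNCRNA transcripts fell. *ppk18*∆ *cek1*∆ gave 13 and 3 as well, where 42.9% of coding genes fell and 36.9% rose. On overexpression of *ppk18* 11 fell and 0 rose, where 28.4% of coding genes fell and 32.3% rose, and 23.7% of the divergent genes of other SPNCRNA transcripts fell. Of the 18 pairs, the RNA and its divergent gene both fell in 10 in the *igo1*∆-labelled strain, 11 in *ppk18*∆ *cek1*∆ and 6 on overexpression. In the same order, only the RNA fell in 3, 3 and 4, only the gene in 3, 2 and 5, and neither in 2, 2 and 3. Whether the 2 fell together more often than their separate counts give was not tested, and pairs of other SPNCRNA transcripts were not counted. Upstream on the same strand, a class added after values were seen and holding 3 genes that also overlap an RNA, 6 of 14 coding genes were at most 0.5 in wild type at 4 h (42.9%, against 14.4% of 181 beside other SPNCRNA transcripts), 9 fell and 3 rose in the *igo1*∆-labelled strain at 1 h and 10 fell and 3 rose in *ppk18*∆ *cek1*∆, and 6 fell and 6 rose on overexpression. The pairs are few, and members of a pair may share a promoter region, so these counts are a description.

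The pairs named next were picked after their values were seen. SPNCRNA.1409 and *mas5*, a chaperone of the DnaJ family, fell by 3.53 and 2.84 on the log2 scale in the *igo1*∆-labelled strain at 1 h. SPNCRNA.756 and *rlp7*, a ribosome assembly factor, fell by 1.90 and 2.43, and SPNCRNA.1031 and *btf3*, of the nascent polypeptide-associated complex, by 1.54 and 2.45. SPNCRNA.699 and *tim10*, of mitochondrial protein import, fell by 1.34 and 1.28. SPNCRNA.1409 averaged only 2.73 normalized counts in that strain at 1 h, the lowest of the 59 RNAs. It met the minimum mean through other groups, so its fall is given as a value only. SPNCRNA.1624 did not follow its neighbour, the ribosomal protein gene *rps1801*, at log2 fold changes of 0.26 (not called) and −1.69. SPNCRNA.1073 fell by 1.19 while *cdc4*, the myosin light chain of the division ring, rose by 0.67. SPNCRNA.726 and *caa1* rose together, by 2.06 and 1.25. On the same strand, 5 of the 6 overlapped genes were at most 0.5 in wild type at 4 h. Among them were *fes1* (0.24) and *hsp3104* (0.24) at SPNCRNA.1653 and SPNCRNA.609, *rps2* (0.12) at SPNCRNA.1261 and *byr3* (0.14) at SPNCRNA.807. At SPNCRNA.1112 *sdh3* was at 2.13. The shared stretches are 14 to 66 bases long. How reads in them were counted is not given in the sources used here, so these 6 RNAs keep that uncertainty.

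**Figure D5:**
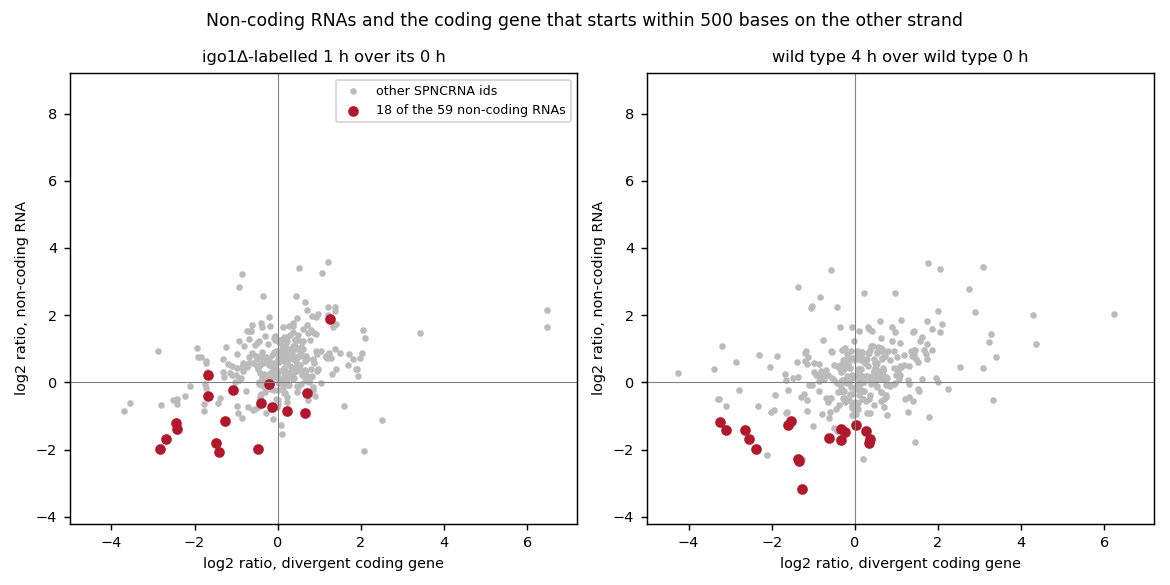
Non-coding RNAs (vertical) against the coding gene that starts within 500 bases on the other strand (horizontal), as log2 ratios of group mean plus 10, in the *igo1*∆-labelled strain at 1 h over 0 h (left) and in wild type at 4 h over 0 h (right, where the RNAs are low by choice). Red points are 18 of the 59 RNAs and grey points other SPNCRNA transcripts, and 10 of the 18 coding genes lie at or below a wild type ratio of 0.5.

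Genes of the machinery that removes non-coding RNA were measured in wild type at 4 h against 0 h, from lists chosen for their function. Of 27 genes of the nuclear exosome and its cofactors 22 fell and 4 rose, with a median log2 fold change of −0.54, where 39.4% of all genes fell and 39.9% rose. *dis3*, the catalytic exosome subunit, fell by 1.25 on the log2 scale (2041 ± 36.8 normalized counts at 4 h and 4857 ± 201 at 0 h, SD, n = 3 each), and *red5*, of the complex that sends transcripts to the exosome, rose by 0.65 (limma, adjusted p = 2.31e-16 and 3.78e-12). Of 13 genes of RNA interference and heterochromatin 10 rose and 2 fell, with *ago1*, the Argonaute protein, at 0.93 and *swi6*, which binds methylated histone H3, at −0.47. Of 12 genes of decay from the RNA's 5′ end and of termination 4 rose and 6 fell, with the exonuclease genes *exo2* at 0.24 and *dhp1* at −0.53. SPNCRNA.735 lies opposite *mtr4*, the exosome's helicase, which fell by 1.07 and was picked after its value was seen. The wild type libraries summed to 15401600 to 15797624 normalized counts at 4 h and 20927914 to 22644212 at 0 h. Scaling them to equal sums would raise all of these fold changes, and the counts of risen and fallen genes under it are not given here. Any part of these genes in the levels of the 59 RNAs was not tested.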

How the data were processed

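RNA-seq libraries had been aligned by the authors with HISAT2 2.1.0 (processing notes: build ASM294v2) and counted with featureCounts of Subread 1.6.3, and were deposited as normalized counts, a signal that is reads per gene divided by a DESeq2 size factor. Whole reads were recovered for 100% of values (tolerance 0.01). A table each existed for the time course and for overexpression, and tests stayed within a table. The main test was limma 3.58.1 (R 4.3.3) on log2(normalized count + 1) with a trend, for genes with a mean of at least 10, and fold changes of low genes are understated on this scale. The 27 time-course libraries were fitted together with 9 group means. P-values were Benjamini-Hochberg adjusted over all genes, with a threshold of 0.05. The test was checked on simulated data. Alternatives were a pseudocount of 10, no filter, a minimum mean of 50, quantile and same-total scaling, no trend, a replicate block, edgeR 4.0.16, DESeq2 1.42.0, only the groups compared and leaving out each replicate.

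Same-numbered replicates deviated together (every r over 0.1) between the *igo1*∆-labelled strain and wild type at 1 h (0.17 to 0.26) and between the mutants at 1 h (0.14 to 0.43), so these pair. Counts of replicates differed by more than sampling noise in all 29 pairs (chi-square per gene 8.50 to 82.2).

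The members and lists were chosen with earlier results of these data known. Named RNAs were the 12 lowest wild type ratios among those with 100 or more normalized counts at 0 h, the 6 highest means, up to 3 largest rises and falls per comparison (mean of at least 50, no overlap), and those nearest the threshold; the surveillance list kept the genes with the largest rise and fall. Promoter motifs and sequences are not analysed here. The value of 1 coding gene is not reported here.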

Additional observations from a re-analysis of the deposited data

How the results depend on the processing

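At a minimum mean of 50 only 24 of the 59 RNAs (28 of 58 on overexpression) were tested, and the calls numbered 15 for *igo1*∆-labelled against wild type at 1 h, 14 for *ppk18*∆ *cek1*∆ against wild type, 15 and 17 for the *igo1*∆-labelled strain and *ppk18*∆ *cek1*∆ at 1 h against their own 0 h, and 16 on overexpression. DESeq2 called 22 on overexpression. edgeR on the recovered reads called 28, 23, 46 and 43 in the time course, in the same order, and 37 on overexpression. The number of RNAs that met the rule was 37 under scaling of the libraries to equal sums (36 shared with the 59), 38 at a ratio of 0.4, and 87 with 1 added in place of 10 (56 shared). Leaving out each library in turn gave 24 to 29 and 18 to 23 calls for *igo1*∆-labelled and *ppk18*∆ *cek1*∆ against wild type, 38 to 43 and 39 to 42 for each against its own 0 h, 0 between the mutants, 25 to 31 on overexpression, 45 to 46 of the surveillance genes, and 57 to 64 RNAs meeting the rule; where a group kept 1 library, it was assumed to vary like the others. The replicate block gave 26, 24, 42, 43 and 0 calls in the time course and 37 on overexpression, so it moved no count by over 1.5 times; on overexpression, where replicate numbers correlated negatively (−0.14), pairing them crosswise, chosen after seeing the data, gave 35. Of 342 values of 22 named results, 335 kept their direction and side of the threshold, 7 lost the call and 0 reversed.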
